A study of Homo sapiens with 4 samples.

Results

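Metallothioneins and the zinc and copper transporters around them are described here in human microglia-like cells, as 10 of the 36601 genes in the files. The 7 metallothioneins are MT2A, MT1E, MT1M, MT1F, MT1G, MT1H and MT1X, and the 3 transporters are SLC30A1, SLC39A8 and SLC31A1. They were found by gene symbol, each symbol matching a single gene. They were chosen by their measured differences between the conditions of these same cultures, so their levels in those comparisons are given as a description, with no p-value. All 10 passed the filter on low counts that left 15057 genes for testing. Mitochondrial transcripts, whose symbols begin with MT and a hyphen, are unrelated to them.

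The microglia-like cells were derived from H9, a human embryonic stem cell line, and 12 cultures in 4 conditions, 3 to a condition, were profiled by single-cell RNA sequencing. SemaLPS cultures received semagacestat, an inhibitor of γ-secretase, at 2 µM for 22 h and lipopolysaccharide (LPS), a bacterial cell wall component, at 200 ng/mL over the last 6 h. LPS cultures received DMSO and the same LPS, Sema cultures received semagacestat and PBS, and Ctrl cultures received DMSO and PBS. All 12 were collected with Accutase and 5 µM actinomycin D, which blocks transcription, were labelled with a hashtag antibody per culture, and were pooled at about 2000 cells each before the pool was divided into 2 libraries. All cultures come from 1 cell line, and what the culture numbers stand for is not given in the labels, so errors describe the spread between cultures of this line. After filtering, 14833 cells remained, 1054 to 1640 per culture, with 30006490 to 51021705 unique molecular identifiers (UMIs, 1 per captured transcript) per culture. The libraries shared 91 barcodes, 10 of them among the cells kept. All 12 markers of microglia and macrophages were detected in every condition, while all markers of erythroid cells, granulocytes, megakaryocytes and pluripotent cells stayed under 1 CPM in every culture. Markers on the other lists reached more. The highest was 892 CPM for monocytes, 134 for proliferating cells, 97.4 for endothelial, 36.3 for epithelial, 10.6 for neural, 6.37 for fibroblast and 1.30 for mast cells. CPM are UMIs summed over a culture's cells and scaled to an equal total per culture.

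Metallothioneins are small cysteine-rich proteins that bind zinc and copper and buffer them in the cell. Their genes, and SLC30A1, are switched on by the zinc-sensing transcription factor MTF1, which binds metal response elements near their start sites; oxidative stress, glucocorticoids and inflammatory signals also raise them. SLC30A1 carries zinc out of the cell, SLC39A8 carries zinc and some other divalent metals into it, and SLC31A1 is the high-affinity copper importer. In macrophages these proteins take part in withholding zinc from microbes and in loading them with copper.

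The 7 metallothionein genes lie in 1 cluster on chromosome 16, from 56608199 to 56684196 in GRCh38, a span of 75998 bases by the GENCODE annotation. MT1G is on the minus strand (56666731 to 56668065) and the other members of the cluster are on the plus strand. SLC30A1 lies on chromosome 1 (211571568 to 211578742, minus strand), SLC39A8 on chromosome 4 (102251041 to 102431258, minus strand) and SLC31A1 on chromosome 9 (113221562 to 113264492, plus strand). The metallothioneins are close paralogs, but of the 211 stretches of 90 bases in the last 300 bases of each of their 7 longest transcripts, 0 occurred in a transcript of another gene.

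The RefSeq table of promoters (GRCh38.p14) matched by symbol holds windows for 6 of the 10 genes, those other than MT1E, MT1M, MT1F and MT1G. The 250 bases before the RefSeq start were searched on both strands for the 7-base core of the metal response element, TGCACNC or TGCGCNC. Among 35116 such windows, 24.8% held at least 1 match, 0.370% at least 4 and 0.0313% at least 7. MT1H had 8 matches, MT2A 7, MT1X 4 and SLC30A1 1. SLC31A1 had 0, and of the 3 windows of SLC39A8 only that of the most upstream start had a match, a single one. The 4 windows below are printed with the core matches in capitals, 5′ to 3′ on the gene's strand. Those of MT2A, MT1X and MT1H show how densely the cores repeat before these metallothionein genes. That of SLC30A1, with 1 match, is printed beside them. No matches overlapped. The windows are chr16:56608334-56608583 (plus strand) for MT2A, chr16:56682220-56682469 (plus) for MT1X, chr16:56669564-56669813 (plus) for MT1H and chr1:211579162-211579411 (minus) for SLC30A1.
MT2A: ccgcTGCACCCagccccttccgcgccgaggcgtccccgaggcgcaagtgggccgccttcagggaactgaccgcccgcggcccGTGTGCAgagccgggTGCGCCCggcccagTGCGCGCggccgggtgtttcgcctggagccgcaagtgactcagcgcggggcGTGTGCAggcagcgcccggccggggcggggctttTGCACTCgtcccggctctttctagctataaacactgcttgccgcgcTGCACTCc
MT1X: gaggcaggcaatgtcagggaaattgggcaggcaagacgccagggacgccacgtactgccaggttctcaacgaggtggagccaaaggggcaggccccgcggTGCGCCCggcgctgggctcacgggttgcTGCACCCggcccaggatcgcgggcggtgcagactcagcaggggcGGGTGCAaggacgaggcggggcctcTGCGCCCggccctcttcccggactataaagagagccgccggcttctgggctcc
MT1H: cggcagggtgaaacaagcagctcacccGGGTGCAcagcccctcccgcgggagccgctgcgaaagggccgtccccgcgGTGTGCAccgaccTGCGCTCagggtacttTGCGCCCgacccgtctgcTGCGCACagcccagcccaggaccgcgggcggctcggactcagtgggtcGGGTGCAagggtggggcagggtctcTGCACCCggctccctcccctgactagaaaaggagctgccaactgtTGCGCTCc
SLC30A1: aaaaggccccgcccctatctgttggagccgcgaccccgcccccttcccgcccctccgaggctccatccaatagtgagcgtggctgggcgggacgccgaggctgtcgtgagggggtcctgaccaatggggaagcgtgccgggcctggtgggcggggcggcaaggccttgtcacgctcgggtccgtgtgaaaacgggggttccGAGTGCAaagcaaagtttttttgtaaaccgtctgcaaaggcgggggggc
A match describes the letters and is not shown to be a bound site.

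With LPS, transcripts of MT2A, the most widely expressed human metallothionein, were far more abundant. MT2A had 102, 111 and 139 CPM in the LPS cultures, against 9.005, 29.1 and 17.8 CPM in the Ctrl cultures. The LPS cultures averaged 117 CPM, 6.29 times the Ctrl mean, and the groups did not overlap; the fitted log2 fold change was 2.66 ± 0.29 (SE). Within semagacestat-treated cultures, MT2A had 64.2, 92.1 and 80.5 CPM in SemaLPS and 28.5, 27.9 and 38.9 CPM in Sema, a log2 fold change of 1.31 ± 0.27 (SE), again without overlap.

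MT1E, MT1M, MT1F and MT1X were also higher with LPS than in Ctrl without overlap, at log2 fold changes of 1.98 ± 0.52, 2.62 ± 0.76, 1.33 ± 0.15 and 0.92 ± 0.14 (SE). MT1X had 32.1, 37.8 and 34.6 CPM in LPS and 14.7, 24.4 and 16.3 CPM in Ctrl. MT1F had 5.50, 6.18 and 5.77 CPM in LPS and 1.64, 2.42 and 2.88 CPM in Ctrl. MT1G and MT1H, neighbours in the cluster, overlapped between the groups: MT1G had 11.1, 30.2 and 19.9 CPM in LPS and 1.00, 22.7 and 8.42 CPM in Ctrl, and MT1H had 1.74, 4.79 and 4.32 CPM in LPS and 0.243, 7.78 and 3.504 CPM in Ctrl. The Ctrl cultures themselves thus spanned nearly the whole range for these isoforms. The call of MT1M was lost without LPS-2, at a log2 fold change of 1.52.

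Among semagacestat-treated cultures the MT1 isoforms did not all follow MT2A. MT1F had 5.04, 5.15 and 4.28 CPM in SemaLPS and 2.72, 3.02 and 3.03 CPM in Sema (0.72 ± 0.14, SE). MT1X was slightly lower in all 3 SemaLPS cultures (26.4, 26.7 and 24.0 CPM) than in the 3 Sema cultures (28.2, 27.4 and 30.7 CPM; -0.16 ± 0.13, SE). MT1E, MT1M, MT1G and MT1H overlapped between SemaLPS and Sema, with log2 fold changes of -0.51 ± 0.44, -0.68 ± 0.62, -1.05 ± 0.61 and -1.44 ± 0.93 (SE).

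The 2 zinc transporters behaved differently under LPS. SLC39A8, the importer, had 38.9, 37.9 and 37.2 CPM in LPS and 14.5, 12.6 and 12.6 CPM in Ctrl, a log2 fold change of 1.52 ± 0.07 (SE). In semagacestat-treated cultures it had 36.2, 41.5 and 37.5 CPM in SemaLPS and 14.5, 13.7 and 13.5 CPM in Sema (1.47 ± 0.06, SE). Its 6 cultures with LPS thus lay together, well above the 6 without. SLC30A1, the exporter and a target of the same factor as the metallothioneins, had 32.6, 35.6 and 30.7 CPM in LPS and 27.6, 33.5 and 30.7 CPM in Ctrl, with overlap (0.11 ± 0.08, SE). Between SemaLPS (35.8, 38.5 and 33.0 CPM) and Sema (29.4, 33.7 and 29.6 CPM) its groups overlapped too (0.21 ± 0.08, SE).

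SLC31A1, the copper importer, was lower with LPS. It had 37.2, 37.5 and 35.9 CPM in LPS and 59.0, 63.8 and 60.0 CPM in Ctrl, a log2 fold change of -0.72 ± 0.05 (SE). It had 38.2, 42.6 and 38.9 CPM in SemaLPS and 53.0, 55.0 and 52.8 CPM in Sema (-0.42 ± 0.05, SE). Neither pair of groups overlapped.

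Of the 10 genes, 6 were past the threshold upward and 1 downward in LPS against Ctrl, where 59.1% of the 15057 genes tested were called. In SemaLPS against Sema 4 were called upward and 1 downward, where 61.1% of all genes were called. SLC30A1, at the edge of the threshold there, was called in 7 of 12 fits that left out a culture, and its call was lost without Sema-1, Sema-3, SemaLPS-1, SemaLPS-2 or Ctrl-3, at log2 fold changes of 0.16 to 0.22. With the culture number as a block, MT1G (-1.02 ± 0.43, SE) and MT1H (-1.43 ± 0.50, SE) were also called lower in SemaLPS than in Sema, where 67.7% of all genes were called. Leaving out SemaLPS-2 took these values to -0.32 and -0.995 and ended both calls, as did leaving out Sema-3, at -0.83 and -0.45. Since these genes were chosen on the same contrasts, the counts are given as a description.

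**Figure D1:**
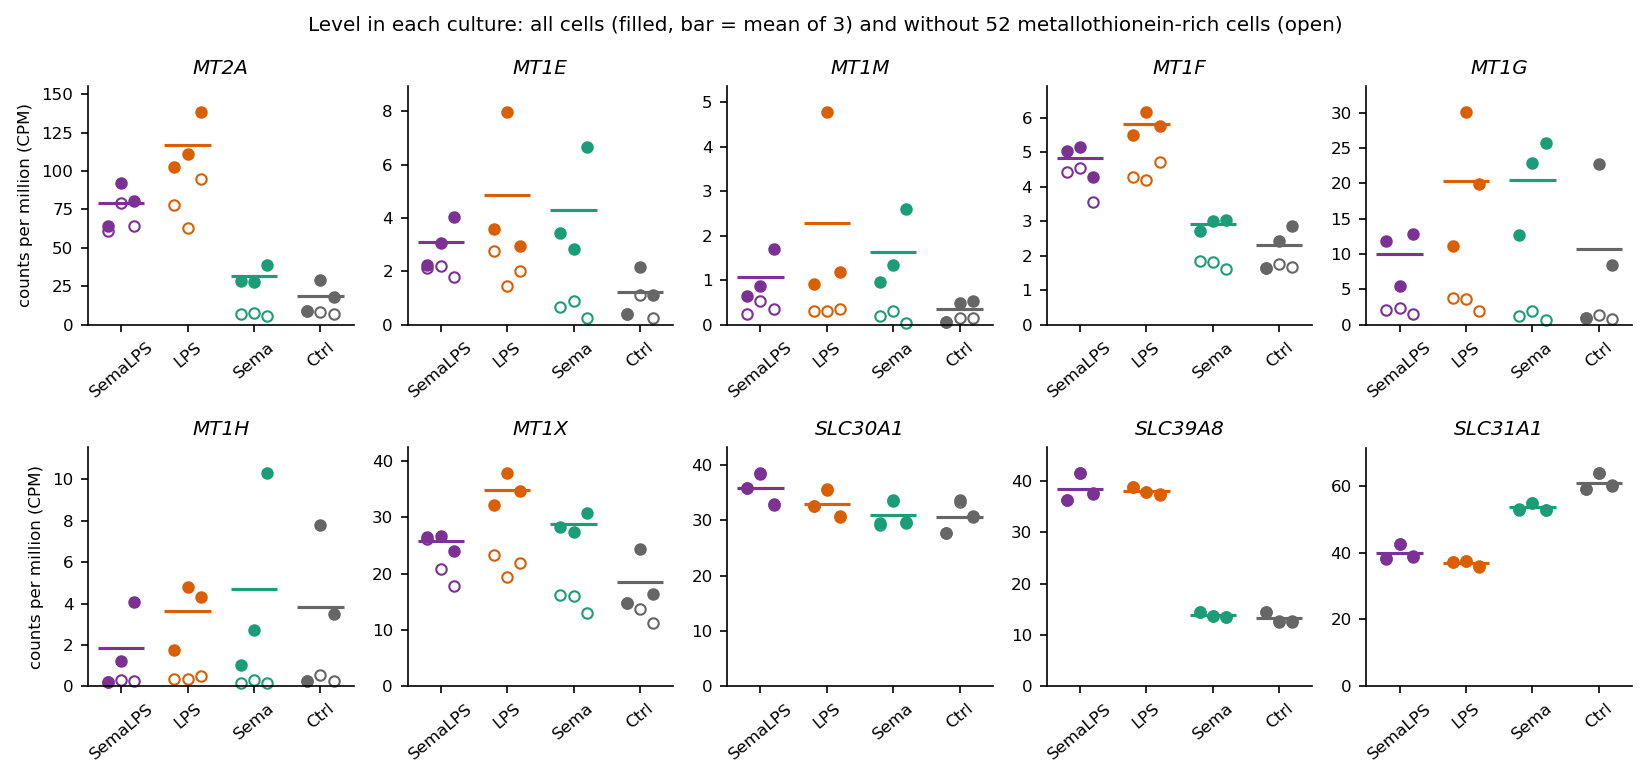
Level of each of the 10 genes in CPM in the 3 cultures of SemaLPS, LPS, Sema and Ctrl, from all cells (filled points, with a bar at their mean) and without 52 metallothionein-rich cells (open points). MT2A and SLC39A8 stand higher with LPS and SLC31A1 lower, and the filled and open points part widely for MT1G, MT1H, MT1E and MT1M but not for the transporters.

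Semagacestat without LPS was accompanied by higher metallothionein levels in the sums over all cells. The 7 metallothioneins together had 77.5, 88.1 and 118 CPM in Sema and 27.0, 89.0 and 50.6 CPM in Ctrl, which overlap. MT1E had 3.43, 2.82 and 6.67 CPM in Sema and 0.394, 2.17 and 1.11 CPM in Ctrl, MT1M had 0.961, 1.34 and 2.61 CPM in Sema and 0.0606, 0.496 and 0.539 CPM in Ctrl, and MT1X had 28.2, 27.4 and 30.7 CPM in Sema, against the Ctrl values above. These 3 did not overlap, though the share of all genes that separate in this way was not counted. The log2 fold changes of MT1E, MT1M and MT1X were 1.85 ± 0.52, 2.20 ± 0.78 and 0.64 ± 0.14 (SE). That of MT2A, which overlapped, was 0.78 ± 0.29 (SE). MT1F, MT1G and MT1H overlapped between Sema and Ctrl, with log2 fold changes of 0.34 ± 0.16, 0.94 ± 0.62 and 0.36 ± 0.86 (SE).

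Of the 10 genes, 0 were past the threshold in Sema against Ctrl, where 0.0133% of all genes, 2 in number, were called. At an unadjusted p under 0.05, 1087 genes were called, and DESeq2 called 17. With the culture number as a block, MT1X, MT1E, MT2A and MT1M were past the threshold upward and SLC31A1 downward, beside 3.37% of all genes. Leaving out Sema-3 in the blocked fit ended the calls of all 5, as did leaving out Ctrl-3, and 2 were left without Ctrl-1 or without Sema-1.

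In the presence of LPS the order was the opposite: the 7 metallothioneins together had 111, 135 and 132 CPM in SemaLPS and 157, 203 and 207 CPM in LPS, with no overlap. MT2A averaged 78.9 CPM in SemaLPS and 117 CPM in LPS, and MT1X had 26.4, 26.7 and 24.0 CPM in SemaLPS, below all 3 LPS cultures. MT1F, at 5.04, 5.15 and 4.28 CPM in SemaLPS and 5.50, 6.18 and 5.77 CPM in LPS, was lower without overlap as well (-0.27 ± 0.14, SE). MT1E (-0.63 ± 0.44, SE), MT1M (-1.10 ± 0.61, SE), MT1G (-1.04 ± 0.62, SE) and MT1H overlapped between SemaLPS and LPS. Of the 10 genes, 0 were past the threshold there, where 0.0133% of all genes were called; 842 genes were called at an unadjusted p under 0.05, and DESeq2 called 8. With the block MT1X was called, at -0.44 ± 0.10 (SE), beside 2.09% of all genes. That call was lost on leaving out LPS-1, LPS-2, LPS-3, SemaLPS-2 or SemaLPS-3, with log2 fold changes of -0.45 to -0.39.

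SLC31A1 was lower in Sema (53.0, 55.0 and 52.8 CPM) than in Ctrl (59.0, 63.8 and 60.0 CPM), a small difference (-0.19 ± 0.05, SE) without overlap. With LPS its order turned, at 38.2, 42.6 and 38.9 CPM in SemaLPS and 37.2, 37.5 and 35.9 CPM in LPS (0.12 ± 0.05, SE). SLC39A8 and SLC30A1 overlapped between Sema and Ctrl and between SemaLPS and LPS. The difference between the 2 effects of semagacestat, with LPS minus without, was tested in the same fit. It was called for 0 of the 10 genes, where 0% of all genes were called (551 at an unadjusted p under 0.05, and 1 by DESeq2). With the block it was called for MT1X (-1.10 ± 0.14, SE) and SLC31A1 (0.30 ± 0.05, SE), beside 0.0664% of all genes. The call of MT1X was lost without Ctrl-3, LPS-2, Sema-1, Sema-3 or SemaLPS-2, at -1.09 to -1.01. That of SLC31A1 was lost without Ctrl-2, Ctrl-3, LPS-2, any of the Sema cultures, SemaLPS-1 or SemaLPS-2, at 0.27 to 0.32. The 10 genes were chosen by differences between these same conditions, so these calls and the blocked calls above are a description only.

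Counted by cell, MT2A was detected far more widely in the 6 cultures with LPS. After each cell was thinned to 10000 UMIs, which left out 140 SemaLPS, 87 LPS, 94 Sema and 79 Ctrl cells that were shallower, MT2A was detected in 26.4 ± 2.3% of SemaLPS cells, 28.3 ± 2.4% of LPS cells, 6.49 ± 1.26% of Sema cells and 6.07 ± 1.03% of Ctrl cells (SD, n = 3). Without thinning the shares were 44.6%, 46.4%, 14.3% and 14.7%. At least 1 UMI of any of the 7 metallothioneins was found in 38.8 ± 2.3% of SemaLPS, 40.1 ± 3.1% of LPS, 21.6 ± 3.3% of Sema and 19.6 ± 2.6% of Ctrl cells (SD, n = 3). MT1X differed little between conditions, being detected in 15.7 ± 2.9%, 15.8 ± 1.2%, 14.1 ± 1.8% and 12.6 ± 1.4% of the cells of the same 4 conditions. No cell type that should lack these genes was present for a background share, so how far free RNA adds to cells with a lone UMI was not tested.

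The transporters followed their levels. SLC39A8 was detected in 24.8 ± 1.5% of SemaLPS, 23.8 ± 0.6% of LPS, 12.6 ± 1.2% of Sema and 12.0 ± 1.5% of Ctrl cells. SLC31A1 was detected in 29.6 ± 1.3%, 29.2 ± 2.4%, 42.0 ± 0.9% and 46.8 ± 4.2% of them, and SLC30A1 in 27.2 ± 3.2%, 25.1 ± 4.0%, 26.7 ± 2.2% and 26.1 ± 2.5% (SD, n = 3). Neither Sema and Ctrl nor SemaLPS and LPS were separated by these transporter shares, except for SLC31A1, where all 3 Sema cultures (41.2 to 43.0%) lay just below all 3 Ctrl cultures (43.3 to 51.5%). Among the metallothioneins, MT1F (2.09 to 2.37% in Sema, 1.54 to 2.03% in Ctrl) and MT1M (0.351 to 0.552%, 0.0978 to 0.290%) were separated. MT1G was just separated, at 1.46 to 2.023% in SemaLPS and 2.024 to 2.76% in LPS. The share of all genes separated in this way was not counted. Without thinning MT1F stayed separated, but MT1M, MT1G and SLC31A1 overlapped. MT1M was then at 0.488% in Sema-3 and 0.655% in Ctrl-3, and MT1G at 4.22% in SemaLPS-3 and 4.17% in LPS-3. SLC31A1 was at 76.4% in Sema-2 and 74.1% in Ctrl-1. With thinning, at least 10 metallothionein UMIs were found in 1.03 to 1.68% of SemaLPS, 1.78 to 2.27% of LPS, 0.431 to 0.829% of Sema and 0.0978 to 0.484% of Ctrl cells.

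**Figure D2:**
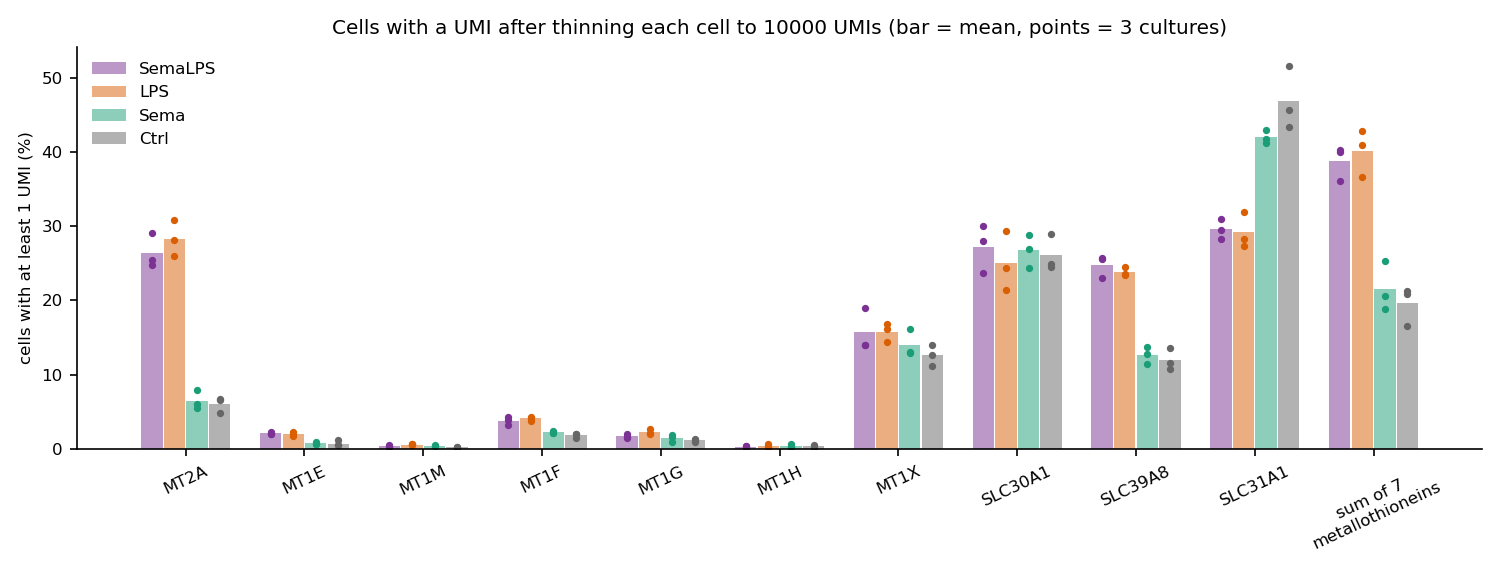
Percent of cells with at least 1 UMI of each gene after thinning to 10000 UMIs, in SemaLPS, LPS, Sema and Ctrl. Bars are means and points are the 3 cultures. MT2A and SLC39A8 were detected in more cells with LPS, while the Sema and Ctrl bars of MT2A and MT1X are nearly level.

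A large share of the metallothionein transcripts was held by a few cells. In Sema cultures the 10 richest cells, of 1122 to 1640, held 69.1 to 82.9% of all metallothionein UMIs. The corresponding range was 21.7 to 39.9% in SemaLPS, 35.1 to 56.1% in LPS and 20.3 to 75.1% in Ctrl. For SLC30A1, SLC39A8 and SLC31A1 the 10 richest cells held 3.30 to 11.7%. The ratio of variance to mean of the thinned counts over cells, which is 1 for randomly scattered counts, reached 118 for MT1G, 95.2 for MT2A and 72.8 for MT1H, and was 1.02 to 1.23 for SLC30A1.

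**Figure D3:**
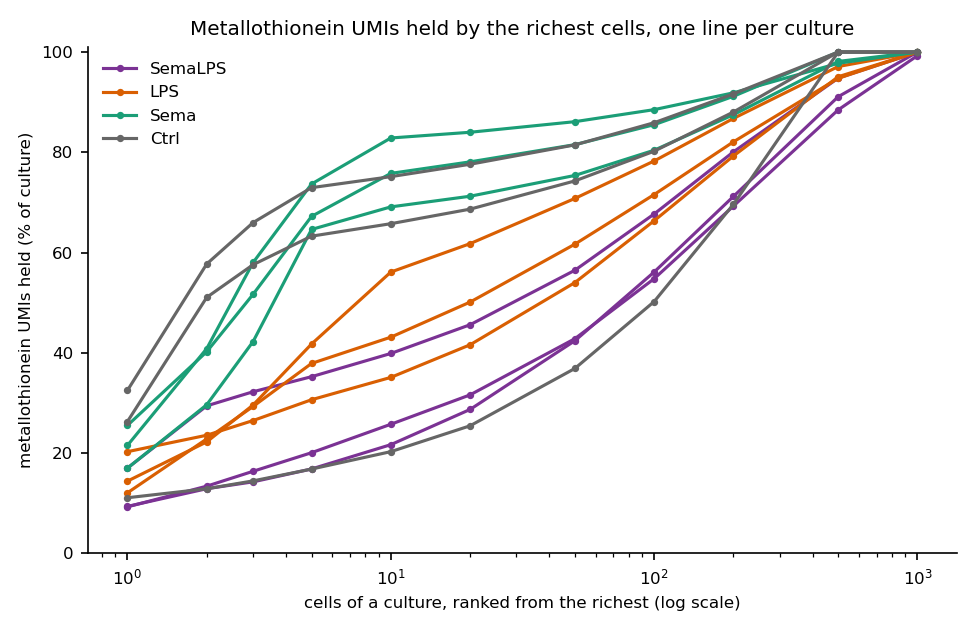
Percent of a culture's metallothionein UMIs held by its richest cells, against the number of cells counted from the richest on a log axis, with a line per culture. In the 3 Sema cultures and 2 of the 3 Ctrl cultures 10 cells held over 65% of the UMIs, while in Ctrl-1 they held 20.3%.

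A total of 52 cells, 0.351% of the 14833, held at least 100 metallothionein UMIs, a limit set after the distribution had been seen. They carried 23414 of the 52639 metallothionein UMIs (44.5%), up to 1284 in a cell and 366 at the median, or 0.988% of the cell's UMIs at the median and 4.90% at most. The cells nearest to the limit had 110 and 115 such UMIs inside it and 99 and 93 outside it. The other cells had a median of 1, and 6925 had 0. The rich cells came from each library, 25 and 27, and were somewhat deeper, with a median of 38483 UMIs against 29316 in the other cells. Their median share of mitochondrial UMIs was 8.62%, against 8.12% in the others.

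The rich cells were found in 11 of the 12 cultures. There were 2, 4 and 3 in the SemaLPS cultures, 4, 9 and 6 in LPS, 5, 5 and 7 in Sema, and 0, 4 and 3 in Ctrl. Per 1000 cells this was 2.18 ± 0.55 in SemaLPS, 5.28 ± 2.28 in LPS, 4.32 ± 0.12 in Sema and 2.20 ± 1.97 in Ctrl (SD, n = 3). The cell with 99 such UMIs, just outside the limit, is from Ctrl-1, so its count of 0 depends on where the limit lies. At these counts the Sema and Ctrl cultures differ by a few cells each, with 4.24 to 4.46 per 1000 in Sema and 0 to 3.79 per 1000 in Ctrl. The order of the conditions differed at another limit. At 50 UMIs, tried after seeing the data, there were 5.51 ± 1.23 per 1000 in SemaLPS, 9.58 ± 3.77 in LPS, 5.197 ± 0.99 in Sema and 3.14 ± 1.96 in Ctrl (SD, n = 3), with Sema and Ctrl overlapping. At 200 UMIs there were 1.23 ± 0.44, 3.90 ± 3.05, 3.82 ± 0.36 and 1.57 ± 1.45 in the same order.

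Most of the difference in metallothionein levels that went with semagacestat lay in those cells. Without the 52 cells the 7 metallothioneins together had 27.6, 29.1 and 21.8 CPM in Sema and 27.0, 26.9 and 21.5 CPM in Ctrl. MT1X then averaged 15.1 CPM in Sema and 13.2 CPM in Ctrl, and MT2A 7.04 CPM in Sema and 8.13 CPM in Ctrl, with overlap for both. With LPS the sums were 96.5, 110 and 89.4 CPM in SemaLPS and 112, 92.5 and 126 CPM in LPS, which also overlap. In the blocked fit without these cells 0 metallothioneins were called in Sema against Ctrl and 1, MT1G, was called in SemaLPS against LPS (-0.61 ± 0.14, SE). The cells were left out by the counts of these same 7 genes, so such calls are a description only. SLC31A1 kept its difference between Sema and Ctrl, at -0.19 ± 0.03 (SE) in the blocked fit, where it was called. The difference between the effects of semagacestat with and without LPS was -0.19 ± 0.12 (SE) for MT1X without these cells, and 0.31 ± 0.05 (SE) for SLC31A1, both in the blocked fit, where that of SLC31A1 was called.

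The difference in MT2A that went with LPS was also present outside those cells, though smaller in CPM. LPS exceeded Ctrl by 98.6 CPM in all cells and by 70.4 CPM without the rich ones. Without them it had 77.7, 63.2 and 94.6 CPM in LPS and 9.004, 8.19 and 7.18 CPM in Ctrl, 9.66 times as much on average, and its log2 fold change was 3.27 ± 0.16 (SE). In semagacestat-treated cultures it was 61.3, 79.0 and 64.0 CPM in SemaLPS and 7.23, 7.90 and 5.99 CPM in Sema (3.29 ± 0.16, SE). The direction of 5 other isoforms in SemaLPS against Sema turned without the rich cells. The log2 fold changes became 1.85 ± 0.42 for MT1E, 1.19 ± 0.49 for MT1M and 0.52 ± 0.13 for MT1X (SE), each then called, among 8 of the 10 genes. Those of MT1G and MT1H became 0.70 ± 0.33 and 0.47 ± 0.40 (SE) and were not called. With all cells 5 of the 10 genes and 61.1% of all genes were called in this contrast. The share of all genes called without the rich cells is not given here. The rich cells were left out by the counts of the metallothioneins themselves, so calls without them are a description only. With the block and without these cells MT1G was called higher in SemaLPS than in Sema, at 0.66 ± 0.16 (SE), where it had been called lower with all cells. MT1G then differed without overlap, with 3.81, 3.62 and 1.92 CPM in LPS and 1.00, 1.34 and 0.752 CPM in Ctrl. MT1M was no longer called in LPS against Ctrl (1.38 ± 0.58, SE), but was called with the block (1.39 ± 0.52, SE). MT1H was under 0.6 CPM in all 12 cultures and overlapped. The 3 transporters had nearly the same values with and without the 52 cells.

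The make-up of the metallothionein UMIs also differed between the 52 cells and the rest. These are counts of transcript 3′ ends, which do not scale with transcript length. MT1G made up 28.1% of the metallothionein UMIs of rich cells in SemaLPS, 21.7% in LPS, 27.5% in Sema and 31.7% in Ctrl, against 2.08%, 2.78%, 4.82% and 4.09% in the other cells of those conditions. MT1H made up 5.61%, 4.06%, 7.20% and 11.5% in rich cells, against 0.267%, 0.360%, 0.740% and 1.34% in the others. In the other cells MT1X led without LPS, with 57.9% in Sema and 52.6% in Ctrl, and MT2A led with LPS, with 69.3% in SemaLPS and 71.3% in LPS. The ratio of isoforms in the other cells thus differed from that in the rich cells of the same condition, and between conditions with and without LPS.

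**Figure D4:**
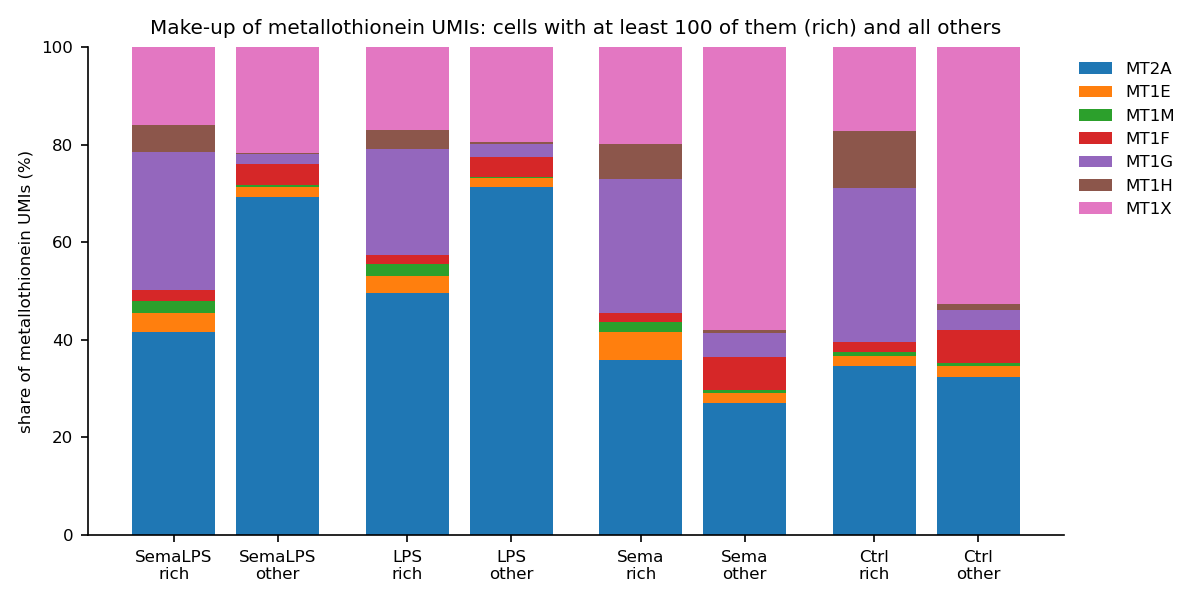
Share of each of the 7 metallothioneins in the metallothionein UMIs, in percent, of cells with at least 100 such UMIs (rich) and of all other cells, in SemaLPS, LPS, Sema and Ctrl. MT1G and MT1H take larger shares in rich cells in all 4 conditions, MT1X leads in other cells without LPS and MT2A in other cells with LPS.

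The rich cells were not alike in the isoforms they used. MT2A was present in all 52 and was the leading isoform in 36, MT1G led in 12 and MT1X in 4. MT1H was detected in 21 of them, up to 405 UMIs in a cell. The richest cell, from Sema-3, held 404 UMIs of MT2A, 419 of MT1X, 193 of MT1G and 0 of MT1H in 69204 UMIs. Another cell of Sema-3 held 187 of MT2A, 5 of MT1X, 423 of MT1G and 405 of MT1H in 44730 UMIs. Across cells the 21 pairs of metallothioneins had median correlations over the 12 cultures of 0.20 to 0.55 (log2 of thinned UMIs + 1), the highest between MT1G and MT1H, and without the rich cells 3 of the 15 pairs that gave a median were over 0.1, those among MT2A, MT1E and MT1X. The 6 pairs with MT1H gave none. Pairs that include a transporter had medians of -0.01 to 0.06.

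Other genes were compared between the 52 cells and the other cells of the same cultures, per 10000 UMIs outside the metallothioneins, which did not enter the choice of those cells. SLC30A1 was higher in the rich cells in 11 of 11 cultures, at 0.539 against 0.320 with LPS and 0.642 against 0.328 without LPS. Of all 15050 genes compared, 2.68% were higher in at least 9 of the 11 cultures and 33.7% lower, and among the 5277 of at least 20 CPM 5.89% were higher and 16.6% lower. SLC31A1 was higher in 7 of 11 cultures and SLC39A8 in 6 of 11. MTF1 was higher in 5 of 11. Of 12 targets of NRF2, the regulator of the oxidative stress response, 6 were higher in at least 9 of the 11 cultures, among them PRDX1 in 11 and GCLM and NQO1 in 10 each. Of 7 heat shock genes 0 were higher in at least 9 cultures. These are counts over cultures that hold 2 to 9 rich cells each, with no test.

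The rich cells carried macrophage transcripts. TREM2, TYROBP, C1QB, C1QC, AIF1, CD68 and SPI1 had UMIs in all 52, and in 97.4 to 99.97% of the other, shallower cells. CX3CR1 was detected in 36.5% of rich cells against 65.7% of the others, P2RY12 in 11.5% against 28.2% and C1QA in 96.2% against 96.9%. CSF1R was detected in 96.2% against 90.5% and GPR34 in 80.8% against 77.5%. Of the 12 markers of microglia and macrophages, 6 were lower in the rich cells in at least 9 of the 11 cultures (AIF1 and CX3CR1 in 11, C1QB, C1QC and P2RY12 in 10, C1QA in 9) and 2 were higher (TYROBP and CD68). The other 4, TREM2, CSF1R, GPR34 and SPI1, were mixed. CX3CR1 was at 0.220 against 0.532 with LPS and 0.404 against 1.83 without LPS. The cell cycle gene MKI67 was lower in 10 of 11.

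The rest of the zinc and copper machinery, and genes of other regulators, were read from lists put together by function. The lists were chosen with earlier results of these data known. Tests were from the fit over all 15057 genes (edgeR's quasi-likelihood test, Benjamini-Hochberg adjustment). Of the 83 genes of all lists together, 59 were tested. The 83 include 12 NRF2 targets, 7 heat shock genes and 8 glucocorticoid receptor targets, which are not zinc or copper genes and are described further below. In LPS against Ctrl 37 of these 59 rose and 9 fell, where 30.3% of all genes rose and 28.8% fell. With the culture number as a block SLC31A2 of the copper list rose as well, as did SGK1 (glucocorticoid list) and HSPA1B and DNAJB1 (heat shock list). MTF1 itself rose, with 51.2, 55.7 and 45.1 CPM in LPS and 12.1, 13.8 and 12.6 CPM in Ctrl, a log2 fold change of 1.98 ± 0.10 (SE; edgeR adjusted p = 7.7e-10). In semagacestat-treated cultures MTF1 had 46.2, 52.1 and 43.3 CPM in SemaLPS and 10.96, 13.2 and 11.3 CPM in Sema.

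Of 6 other zinc exporters tested in LPS against Ctrl, 3 rose, 0 fell and 3 did not pass, and the median log2 fold change was 0.13, beside -0.02 over all genes. SLC30A4, of endosomes and lysosomes, rose by 0.91 ± 0.10 (SE; edgeR adjusted p = 3.5e-06), and SLC30A7 and SLC30A6, of the secretory pathway, rose by 0.27 ± 0.06 and 0.17 ± 0.06 (SE). Of 9 other importers 4 rose, 2 fell and 3 did not pass, with a median of 0.05. SLC39A6 had 42.7, 46.0 and 43.5 CPM in LPS and 23.3, 24.2 and 22.5 CPM in Ctrl (0.92 ± 0.04, SE; edgeR adjusted p = 8.1e-10). SLC39A13 (0.69 ± 0.06, SE) and SLC39A14 (0.64 ± 0.10, SE) rose and SLC39A10 (-0.54 ± 0.07, SE) and SLC39A11 (-0.18 ± 0.07, SE) fell. The zinc-binding calprotectin subunits S100A8 and S100A9 and the related S100A12 all rose, at 2.498 ± 0.10, 2.39 ± 0.07 and 2.94 ± 0.18 (SE).

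Of 14 other genes of copper handling tested in LPS against Ctrl, 8 rose, 4 fell and 2 did not pass, and the median log2 fold change was 0.36. STEAP4, a metalloreductase, was at 7.95, 7.99 and 6.79 CPM in LPS and 0.0303, 0.186 and 0.120 CPM in Ctrl (6.04 ± 0.41, SE; edgeR adjusted p = 2.3e-08). ATP7A, which pumps copper into the secretory pathway and out of the cell, fell to 15.6, 16.2 and 17.6 CPM in LPS, against 39.4, 39.3 and 41.9 CPM in Ctrl (-1.29 ± 0.05, SE; edgeR adjusted p = 1.3e-10). The copper chaperones COX17 and ATOX1 rose by 0.71 ± 0.04 and 0.59 ± 0.03 (SE), and CCS, the chaperone of superoxide dismutase, fell by 0.36 on the log2 scale. CP, ceruloplasmin, had 0.531 CPM in LPS and 1.19 CPM in Ctrl on average (-1.16 ± 0.30, SE).

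**Figure D5:**
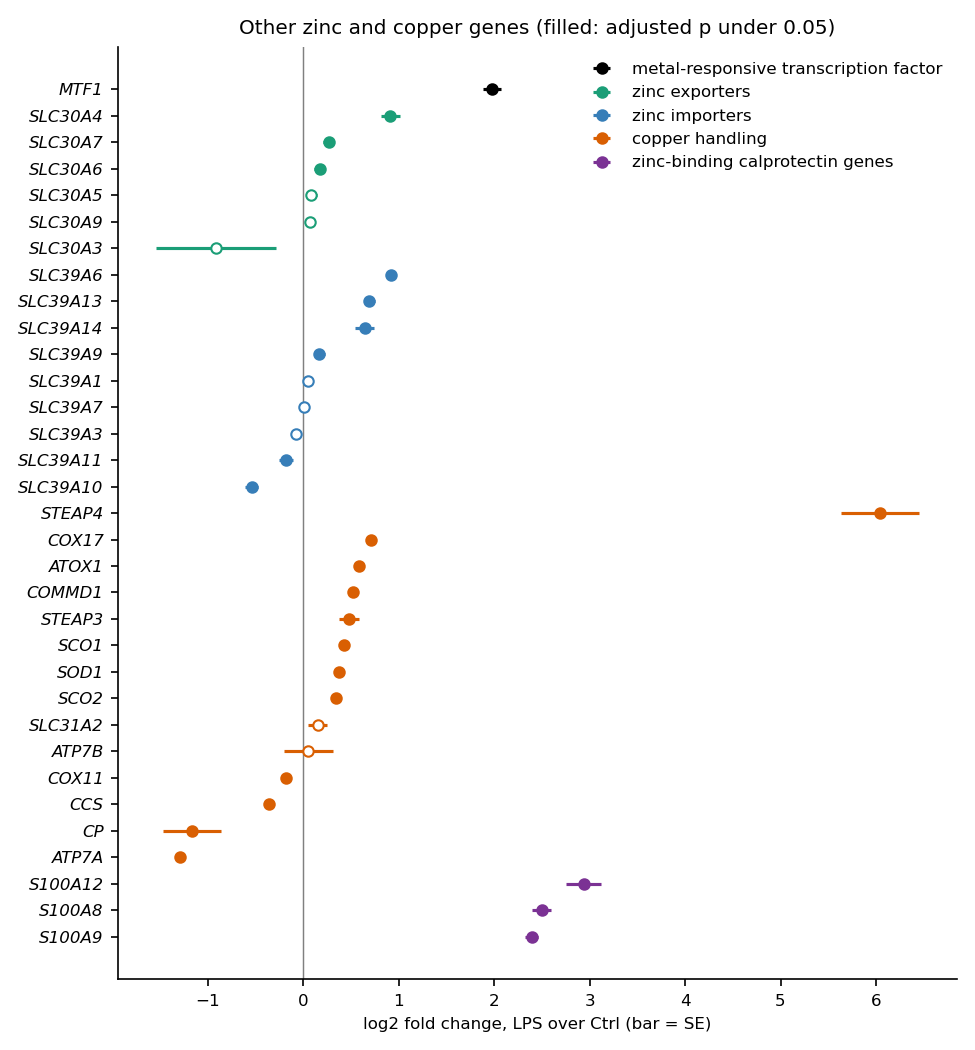
Log2 fold change in LPS over Ctrl, with standard errors, of MTF1 and of the other zinc exporters, zinc importers, copper genes and zinc-binding S100 genes tested. Filled points have an adjusted p under 0.05. MTF1 and the 3 S100 genes lie near 2 or above it, STEAP4 at 6.04 and ATP7A at -1.29.

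Other regulators known to act on metallothionein genes were read in the same fit. Of 12 NRF2 targets 11 rose and 1 fell in LPS against Ctrl, with a median of 0.86: GCLM rose by 1.03 ± 0.06, TXN by 0.96 ± 0.06 and SLC7A11, the cystine importer, by 2.44 ± 0.16 (SE), and GCLC fell by 0.40 on the log2 scale. Of 7 heat shock genes 5 rose and 0 fell, with a median of 0.29, led by HSPA8 (0.62 ± 0.04), HSPA1A (0.72 ± 0.08) and HSP90AA1 (0.42 ± 0.06, SE). Of 7 glucocorticoid receptor targets tested 2 rose and 2 fell: FKBP5 (2.28 ± 0.07) and DUSP1 (0.67 ± 0.07) rose, and TSC22D3 (-0.86 ± 0.08) and KLF9 (-0.32 ± 0.09, SE) fell. Of 13 other metallothionein genes and pseudogenes listed, 5 are in the files and 0 passed the filter. MT1A had 63 UMIs in all, 35 of them in 13 of the 52 rich cells, MT3 had 5 and MT1B had 1.

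With semagacestat, 0 of the 59 list genes passed in Sema against Ctrl and 1 fell in SemaLPS against LPS, the phosphatase gene DUSP1 (-0.47 ± 0.06, SE; edgeR adjusted p = 0.039). Its call rested on several cultures, since 0 list genes were called without any 1 of the LPS or Sema cultures, without SemaLPS-1 or without SemaLPS-3. With the culture number as a block 4 fell in Sema against Ctrl: HMOX1, SLC7A11, DUSP1 and SLC31A2, a relative of the copper importer. SLC31A2 had 12.8, 14.99 and 16.03 CPM in Sema and 16.6, 18.5 and 21.1 CPM in Ctrl (-0.36 ± 0.05, SE; edgeR adjusted p = 0.0021 with the block). In SemaLPS against LPS the block gave 3 that rose, STEAP4, ME1 and HSPA8, and 2 that fell, DUSP1 and SLC39A10. STEAP4 had 14.8, 11.4 and 7.65 CPM in SemaLPS and 7.95, 7.99 and 6.79 CPM in LPS.

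Genes whose level ran most like these over the 12 cultures were sought among 5277 genes of at least 20 CPM, by the correlation of log2(CPM + 1). The cultures fall into those with and without LPS, which carries much of any such likeness. For the summed metallothioneins the closest were MAN2B1, a lysosomal mannosidase (r = 0.95), RPF1 (0.92), ATF6, a sensor of endoplasmic reticulum stress (0.88), EIF4A2 (0.88) and ENOX2 (0.88), all of which differed little between conditions. MAN2B1 averaged 132 CPM in SemaLPS, 135 in LPS, 125 in Sema and 119 in Ctrl. For SLC39A8 they were ADI1, LYRM4, TMEM138, SEPTIN11 and ATP2B1, each at r = 1.00 to 2 decimals. ATP2B1, a calcium pump of the plasma membrane, averaged 305 CPM in SemaLPS, 312 in LPS, 89.9 in Sema and 89.1 in Ctrl. Across cells within cultures the highest mean correlations with the metallothionein sum were weak, at 0.09 for SOD2, 0.08 for NAMPT, C15orf48 and SRGN and 0.07 for S100A9.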

How the data were processed

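The files hold UMI counts per gene and per hashtag antibody for each barcode of 2 10x libraries, as deposited by the authors. Cell Ranger 6.0.1 made these counts per the file headers, while the submitters' processing notes name Cell Ranger 3.0.2, Seurat 4.1.1 and hg38. The annotation used for counting was not stated. Of 28943 barcodes, 21624 carried a single hashtag, 6847 (23.7%) several, taken as doublets and left out, and 472 none. A hashtag was called above the 99th percentile of its own background. Cells were kept at 1000 or more detected genes and up to 10% of UMIs from mitochondrial genes, 14833 in all. UMIs were summed per hashtag culture over the libraries, and the totals of 30006490 to 51021705 set the precision. Where an SD is given, it is over the 3 cultures of a condition.

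The sums of all 12 cultures were fitted with edgeR 4.0.16 (quasi-likelihood test, TMM, filterByExpr, R 4.3.3) with condition as the term, and Benjamini-Hochberg adjustment at 0.05 over 15057 genes. Standard errors are approximate (the size of a log2 fold change divided by √F). The members and the gene lists were chosen with earlier results of these data known, and p-values measure only the spread between cultures. All 10 members were read in every comparison. Where groups are said not to overlap, the share of all genes that do so was not counted. Of a list, at most 3 genes in each direction are named, those with the smallest adjusted p, and others named beside a count of 5 or fewer were chosen after their values were seen. Deviations from the condition means of cultures with the same number correlated at 0.45 to 0.75 (18 pairs, 5279 genes of at least 20 CPM), against -0.56 to 0.17 for other pairs, so the numbers were taken to pair the cultures, from the data and not from a label. A fit with the number as a block is given where it changed a call. The scripts were tested on simulated data. For shares of cells each cell was thinned to 10000 UMIs. Alternatives were DESeq2 1.42.0, its size factors, no filter, each library or pair of conditions alone, other mitochondrial and hashtag limits, other thinning and leaving out each culture. The values of 1 list gene are not reported here.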

Additional observations from a re-analysis of the deposited data

Results flagged for a closer look

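For MT1F, MT1X and SLC31A1, all 3 same-numbered pairs of cultures moved one way with semagacestat in the presence of LPS and the opposite way in its absence, as did 3.64% of all 15057 genes. For MT1M, MT1G and MT1X, all 3 pairs moved one way with LPS in the presence of semagacestat and the opposite way in its absence, as did 0.744% of all genes. Both patterns bear on the same interaction term. These 5 genes were picked by the same values that the term reads, so its calls are given as a description. On the log2 scale, the effect with LPS minus the effect without LPS was -3.31 for MT1M, -0.61 for MT1F, -1.98 for MT1G, -1.08 for MT1X and 0.30 for SLC31A1. The difference was tested with an interaction term: 0 of the 5 passed the adjusted threshold in edgeR without the block, and MT1X and SLC31A1 passed with it, calls that were lost on leaving out any of 5 cultures for MT1X and any of 8 for SLC31A1. Without the 52 metallothionein-rich cells the values were -0.18 for MT1M, -0.11 for MT1F, -0.89 for MT1G, -0.18 for MT1X and 0.31 for SLC31A1.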

How the results depend on the processing

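Counts for LPS against Ctrl stayed within 1.5 times under every alternative run, and the summed metallothionein levels kept their direction. Single members did not all keep theirs. MT1H in LPS against Ctrl had a log2 fold change of -0.08 with all cells and 0.24 without the metallothionein-rich ones. In SemaLPS against Sema the isoforms named above turned without those cells. In Sema against Ctrl, 2 genes, 0 members and 0 list genes were called. These counts became 508, 5 and 4 with the replicate block, 28, 2 and 1 without the filter on low counts, and 17, 1 and 1 with DESeq2. The gene count was 0 with the 2 conditions alone or library 1 alone and 1 with a mitochondrial limit of 20% or none. In SemaLPS against LPS, 2 genes, 0 members and 1 list gene were called, and 314, 1 and 5 with the replicate block. The gene count was 11 without the filter, 8 with DESeq2, 6 in library 2 alone, and 0 in library 1 alone, with the 2 conditions alone or with either mitochondrial limit, and the list gene was lost in those last 4. The interaction called 0 genes and 0 members, 10 and 2 with the replicate block, and 1 and 1 without the filter, with the hashtag ratio or with DESeq2.

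The alternatives without metallothionein-rich cells were chosen after seeing the data. Together with the replicate block they gave 530 genes, 1 member and 3 list genes in Sema against Ctrl, 317, 1 and 5 in SemaLPS against LPS, and 8 genes and 1 member in the interaction. Members called in SemaLPS against Sema were 5, and 8 without those cells, or 9 with the block as well. The log2 difference of the summed metallothioneins was 0.055 in Sema against Ctrl, -0.16 in SemaLPS against LPS and 1.92 in SemaLPS against Sema without those cells. In library 1 alone it was 1.64 in Sema against Ctrl, and in SemaLPS against LPS it was -0.37 in library 1 and -0.80 in library 2. DESeq2 was not run for the summed level. The cause of these shifts was not tested.

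Leaving out 1 culture at a time gave 8154 to 8969 genes, 6 to 8 members and 43 to 47 list genes in LPS against Ctrl, and 8429 to 9319, 4 to 6 and 46 to 48 in SemaLPS against Sema. It gave 0 to 4 genes, 0 to 1 members and 0 to 1 list genes in Sema against Ctrl, 0 to 3, 0 to 0 and 0 to 1 in SemaLPS against LPS, and 0 to 1 genes and members in the interaction. In the replicate block the same exercise, added after seeing the data, gave 7 to 9 members and 46 to 50 list genes in LPS against Ctrl, 5 to 9 and 47 to 51 in SemaLPS against Sema, 0 to 5 and 2 to 6 in Sema against Ctrl, 0 to 2 and 1 to 7 in SemaLPS against LPS, and 0 to 4 members in the interaction. The summed level ranged over 1.48 to 2.34 in LPS against Ctrl, 0.48 to 1.33 in Sema against Ctrl, -0.71 to -0.50 in SemaLPS against LPS and 0.29 to 0.59 in SemaLPS against Sema. The block changed no call among the 10 members other than those named.

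Cells with a metallothionein UMI were 38.0 to 40.1% in SemaLPS, 38.8 to 41.9% in LPS, 19.7 to 23.0% in Sema and 18.8 to 21.1% in Ctrl when a culture was left out. In the same order of conditions they were 26.8, 27.4, 11.6 and 11.1% after thinning to 5000 UMIs and 64.1, 63.6, 42.6 and 41.3% without thinning. Cells with at least 10 such UMIs ranged over 1.28 to 1.61% in SemaLPS, 1.99 to 2.24% in LPS, 0.479 to 0.678% in Sema and 0.289 to 0.482% in Ctrl. In SemaLPS and LPS they were 4.96 and 6.30% with a limit of 5 UMIs, 0.373 and 0.824% with 20, 0.539 and 0.841% after thinning to 5000 UMIs, and 7.78 and 8.46% without thinning, where Ctrl had 0.598%. In LPS they were 2.39% in library 1 and 1.77% in library 2. Depth limits these shares, which were higher with more UMIs kept per cell.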
